A study of Mus musculus with 8 samples.

Results

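Osteoinductive medium was compared with growth medium in the cultures that flew, which are 4 of the 8 arrays of the series. The cells were adherent stromal cells of the bone marrow, which can give rise to bone, cartilage and fat, and came from femurs and tibiae of C57BL/6 mice aged 6 to 8 weeks. They were seeded on Skelite, a scaffold of calcium phosphate, and kept in automated incubation units within one incubator in orbit. The titles give 1 array to each of 4 flown cultures, which were osteoinductive medium on a 1g centrifuge, osteoinductive medium in microgravity, growth medium on the 1g centrifuge and growth medium in microgravity. Each medium thus had 2 arrays, and each centrifuge or microgravity array in osteoinductive medium was set against the growth medium array of the same flight condition, which gives 2 pairs. Growth medium was a modified Ham's F12 with fetal calf serum, glutamine and antibiotics and no added cytokine, and what the osteoinductive medium was made of is not stated in the labels. The other 4 arrays came from ground units and laboratory dishes in both media. They were used to set the flight difference beside that in cultures that did not fly. They also entered the estimate of spread where a p-value over all 8 arrays is given.

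The arrays on one side are different flight conditions and not repeats of one condition, and the labels do not say that they came from separate animals or cultures, so a p-value here reflects the spread among these arrays alone, and that spread may be technical. The gravity label of both centrifuge arrays reads microgravity, and the osteoinductive centrifuge array is once described as kept in growth medium although its title and its osteo-induction label say otherwise. The titles were followed. Fkbp5, whose product binds the glucocorticoid receptor complex, had an intensity of 3018 on that array, beside 2717 on the osteoinductive microgravity array, against 495 and 493 on the growth arrays. Fkbp5 is among the highest rises named below, which were chosen for a large difference in both pairs. Its values are therefore no separate check of the label. The defining genes of stromal cells were bright on all 4 arrays. Col1a1, the main chain of type I collagen, had 6864 and 7008 in osteoinductive medium against 6289.8 and 6043 in growth medium, and Vim, the mesenchymal filament protein vimentin, had 6094 and 6619 in osteoinductive medium against 7448 and 7296 in growth medium. The osteoinductive microgravity array stood apart in genes of lung epithelium, whose summed intensity over 14 genes was 16848 there, against 3336 on the osteoinductive centrifuge array and 3594 and 4367 on the growth arrays, and results that rest on it are given with and without it.

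As background, marrow stromal cells become bone-forming osteoblasts when they are given osteoinductive medium, which commonly holds a synthetic glucocorticoid, ascorbic acid and a phosphate source. Glucocorticoids enter the cell and bind a receptor that acts as a transcription factor, which switches on genes such as those for FKBP5, GILZ and the metallothioneins, and the same receptor restrains inflammatory genes. Interferons switch on a different set of genes, the antiviral ones, through STAT and IRF factors that bind a short repeated element near the start of many of them.

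Values below are intensities as deposited, on a linear scale, with the centrifuge array before the microgravity array in each medium. A difference is the log2 of osteoinductive over growth medium averaged over both pairs, so that a value of 1 is a doubling, and a gene was called when its adjusted p from limma was under 0.05 over all 13295 genes tested. The fit shared a single standard error (SE), 0.18 on the log2 scale, among all genes, because limma found no difference in spread between genes beyond what 1 residual degree of freedom gives by itself. A call is therefore the same as an average difference of at least 0.53 in either direction. For named genes an adjusted p from the fit over all 8 arrays is also given. There each gene's spread was drawn strongly toward one shared by all genes, with 2 degrees of freedom of its own and 11.6 shared ones. Genes passed the filter on their mean over the 4 arrays, which had to exceed an intensity of 146 (log2 7.19), so that a gene dim in one medium passed only through the other. This held for 31 of the 491 rises and 30 of the 603 falls given next, and for these a fold is stated only as a lower bound, the brighter medium's mean over that level.

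Between the media in flight, 491 genes were higher and 603 were lower in osteoinductive medium. These are 1094 genes, or 8.23% of those tested, with 3.69% higher and 4.54% lower. The rises reached further than the falls, with 136 genes more than 2-fold higher and 64 genes more than 2-fold lower. The differences of the centrifuge pair and of the microgravity pair had a correlation of 0.58 across the 13295 genes, which are not independent replicates. Of the genes called, 1065 had non-overlapping levels in the 2 media, which also held for 46.1% of all genes tested. The median difference over all genes was -0.04. Without the osteoinductive centrifuge array 335 genes were called, without the osteoinductive microgravity array 434, without the growth centrifuge array 1271 and without the growth microgravity array 2061.

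**Figure D1:**
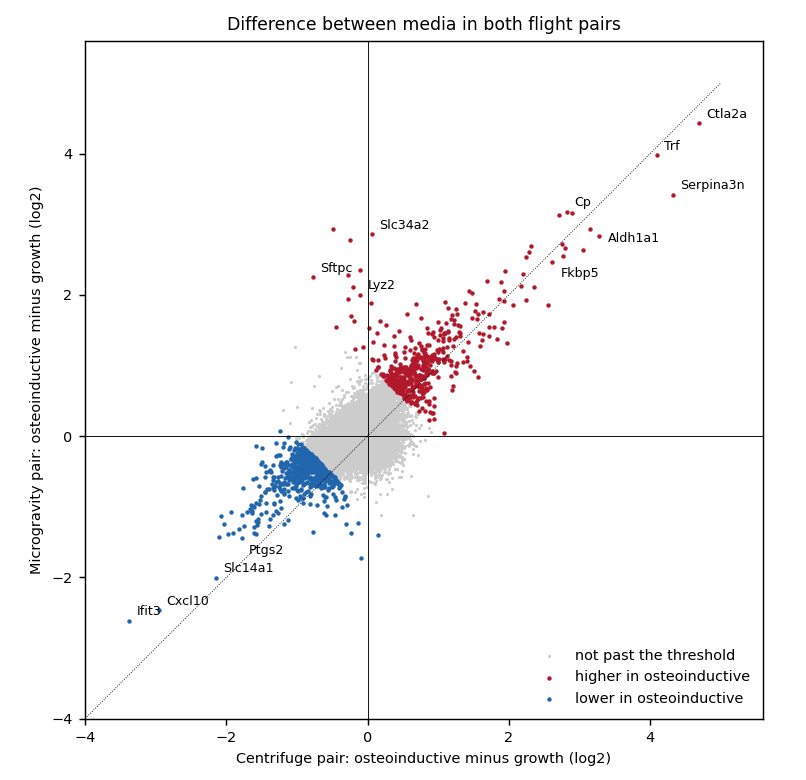
Difference between osteoinductive and growth medium in the centrifuge pair (horizontal axis, log2) and in the microgravity pair (vertical axis, log2), one point per tested gene, with red points higher, blue points lower and grey points not past the threshold; the dotted line marks equal differences. Ctla2a, Trf and Serpina3n lie at the upper right near the dotted line and Ifit3 and Cxcl10 at the lower left, whereas Slc34a2, Sftpc and Lyz2 are raised in the microgravity pair and lie near or left of 0 in the centrifuge pair.

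The 3 highest rises in osteoinductive medium were those of Ctla2a, Trf and Serpina3n. Ctla2a, which encodes a cysteine protease inhibitor first found in mouse T cells, had intensities of 1462 and 1152 in osteoinductive medium against 56.7 and 53.5 in growth medium. It was at least 8.87-fold higher (adjusted p = 1.43e-08 over all 8 arrays). Both osteoinductive arrays lay far above both growth arrays, where the gene was below the level tested. Trf, the iron carrier transferrin, had intensities of 4618 and 4795 in osteoinductive medium against 269.9 and 304 in growth medium. It was 16.4-fold higher (difference 4.04, SE 0.18, adjusted p = 4.83e-09 over all 8 arrays), and the osteoinductive arrays lay close together. Serpina3n, a secreted serine protease inhibitor of the acute phase, had 3803 and 3131 in osteoinductive medium against 189 and 293 in growth medium, and was 14.7-fold higher (adjusted p = 2.64e-07 over all 8 arrays). Its rise was larger in the centrifuge pair, at 4.33, than in the microgravity pair, at 3.42.

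The 14 highest rises also held Folh1 and Klhl4. Folh1, a carboxypeptidase that removes glutamate from folates, had 859 and 858 in osteoinductive medium against 97.1 and 112 in growth medium. Klhl4, a kelch-repeat protein, had 1966 and 2258 in osteoinductive medium against 299.9 and 258 in growth medium. Ms4a4d, a membrane protein of the MS4A family, had 1018 and 989.6 in osteoinductive medium against 150.4 and 151 in growth medium. In all 3 genes the levels in the 2 media were several-fold apart and the arrays of one medium lay close together. Fetub, the liver protein fetuin-B, had 1014 and 801 in osteoinductive medium against 122 and 129 in growth medium, and Try5, a trypsin, had 2591 and 1792 in osteoinductive medium against 382 and 306 in growth medium. Pi15, a secreted peptidase inhibitor, had 1432 and 1312 in osteoinductive medium against 289 and 203 in growth medium, and was 5.65-fold higher. Among the 14 highest rises the adjusted p over all 8 arrays ranged from 4.83e-09 to 2.64e-07, and in the fit of the flight arrays with their common SE from 6.48e-130 to 2.62e-39. The 14 were chosen by the smaller of their 2 pair differences, so a fit with an array left out gives no separate support for them. Of the 14, Ctla2a, Folh1, Aldh1a7 and Fetub, 4 in all, were below the level tested on both growth arrays.

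**Figure D2:**
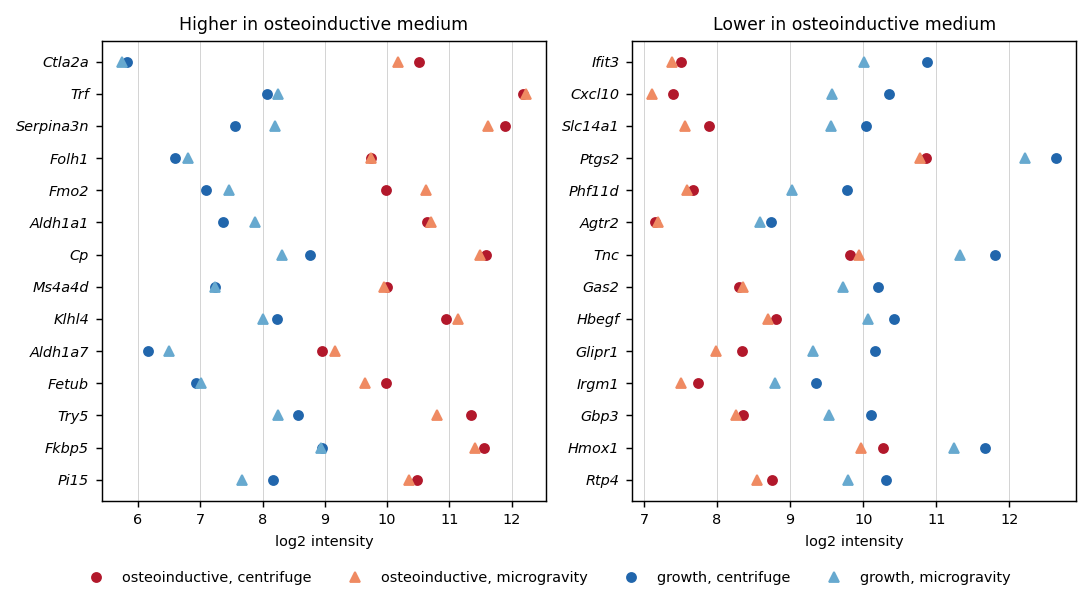
Log2 intensity of the 14 genes that rose most (left) and the 14 that fell most (right) in osteoinductive medium, with red and orange marks for the osteoinductive arrays and blue marks for the growth arrays, circles for the centrifuge and triangles for microgravity. In each of the 28 genes the osteoinductive marks lie on one side of the growth marks, and the gap is widest in Ctla2a and Trf. The genes were chosen for a large difference in both pairs, so this separation largely follows from the choice.

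The glucocorticoid receptor binds DNA as a pair of half-sites with the letters AGAACA, and these were searched on both strands (TGTTCT on the other strand) in promoter windows of 250 bases before to 50 after each gene's start, from RefSeq on build GRCm38.p6. A window was at hand for 11 of the 14 highest rises, and 5 of these held the half-site, against 14.8% of the 10528 tested genes with a window and 19.0% of all 32851 windows. Among the risen members of the glucocorticoid target list 1 of 12 genes with a window held it. The full palindrome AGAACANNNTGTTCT was in 0 of the 11 windows and in 0.009% of all windows. A match is a description of letters and not a bound site. The stretches of 80 bases around the half-site are shown, 5′ to 3′ on the gene's strand, for 4 of the genes that rose most, with the half-site in capitals. They lie at chr13:60936794-60936873 (minus strand), chr12:104406488-104406567 (plus strand), chr1:162898576-162898655 (minus strand) and chr3:19956907-19956986 (plus strand), in each case upstream of the annotated start.
Ctla2a: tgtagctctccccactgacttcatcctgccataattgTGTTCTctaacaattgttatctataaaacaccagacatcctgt
Serpina3n: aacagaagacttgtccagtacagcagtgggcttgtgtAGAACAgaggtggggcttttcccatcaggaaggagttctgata
Fmo2: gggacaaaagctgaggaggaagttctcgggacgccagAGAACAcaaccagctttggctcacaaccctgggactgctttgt
Cp: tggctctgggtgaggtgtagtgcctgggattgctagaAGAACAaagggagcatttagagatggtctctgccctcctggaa

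Known targets of the glucocorticoid receptor rose in osteoinductive medium. Of 26 tested targets 15 were higher and 0 were lower, and their median difference was 0.65, beside a median of -0.04 over all genes and the 3.69% of all genes that were higher. The receptor's own gene, Nr3c1, was not called, with 563 and 609 in osteoinductive medium against 716 and 522 in growth medium. Fkbp5 was 5.8-fold higher (difference 2.54, SE 0.18, adjusted p = 1.75e-07 over all 8 arrays). Tsc22d3, which encodes the anti-inflammatory leucine zipper GILZ, had 719 and 589 in osteoinductive medium against 189 and 192 in growth medium, a 3.42-fold rise (adjusted p = 6.56e-06 over all 8 arrays). Hsd11b1, the enzyme that turns inactive 11-keto glucocorticoids into active ones, had 426 and 406 in osteoinductive medium against 83.5 and 94.2 in growth medium, where it was below the level tested, and was at least 2.84-fold higher. Fkbp5 and Tsc22d3 were more than 3-fold higher on both osteoinductive arrays than on either growth array.

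Several transcription factors were among the risen targets. Klf9 had 1730.4 and 1439.7 in osteoinductive medium against 698 and 540.3 in growth medium, Zbtb16 (the factor PLZF) had 558 and 499 in osteoinductive medium against 209.9 and 239.7 in growth medium, and Cebpd, a C/EBP factor of early fat cell differentiation and the acute phase, had 526 and 509 in osteoinductive medium against 265 and 198 in growth medium. Klf15, a factor of fat and muscle metabolism, was higher by 0.71 and the clock gene Per1 by 0.82. Neither gene overlapped between the media, which also held for 46.1% of all genes tested. Hif3a, which antagonises the hypoxia factors, had 365 and 255 in osteoinductive medium against 123 and 143 in growth medium, and the centrifuge pair differed more than the microgravity pair. Tgm2, the crosslinking enzyme transglutaminase 2, was 3.13-fold higher, with 724 and 1026 in osteoinductive medium against 252 and 301 in growth medium. Dusp1, the phosphatase that switches off MAP kinases, and Mertk, a receptor for the uptake of dying cells, were near the threshold, at 0.58 and 0.57. Of the targets that were not called, Errfi1 differed by 0.46, Glul by 0.50, Sgk1 by 0.27, the transcription factor Bcl6 by 0.31, Ddit4 by -0.01 and Nfkbia, the inhibitor of NF-kB, by -0.44. With an array left out the count of risen targets was between 11 and 18. Of the 15 risen targets 2, Hsd11b1 and Hif3a, were below the level tested on both growth arrays.

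**Figure D3:**
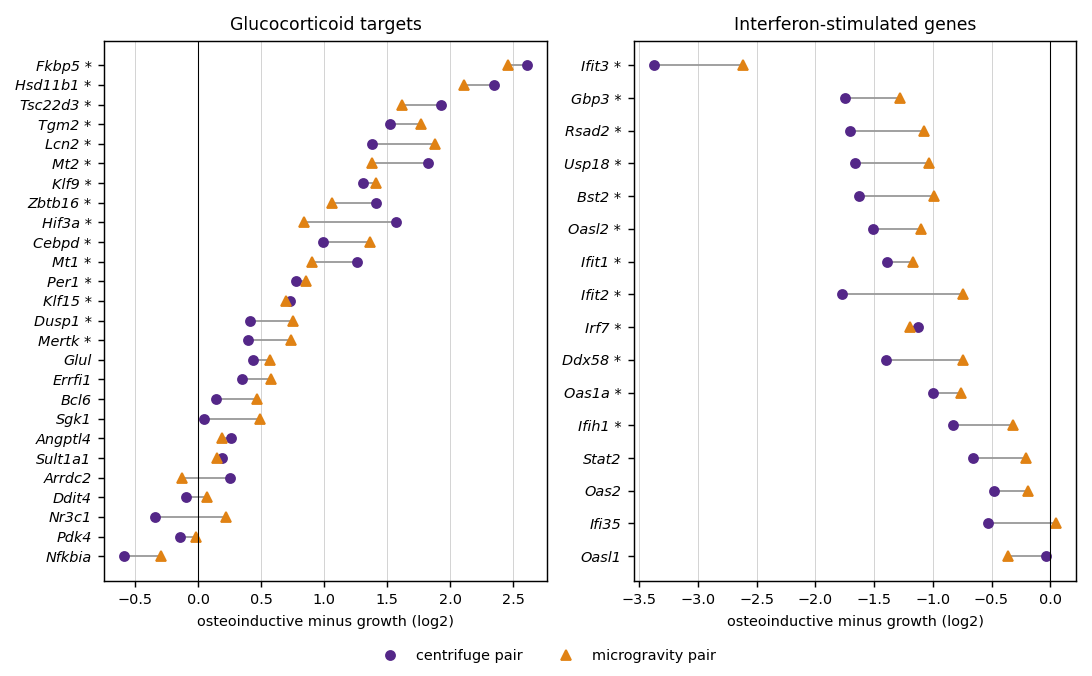
Difference between osteoinductive and growth medium (log2) for each tested member of the glucocorticoid target list (left) and of the interferon-stimulated list (right), with circles for the centrifuge pair and triangles for the microgravity pair; an asterisk marks genes past the threshold. Fkbp5 and Hsd11b1 lead the left panel, and Ifit3 stands furthest left in the right panel, at -3.37 and -2.62.

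Genes for metal carriers and the acute phase rose, 7 of 14 tested, while 1 fell, with a median of 0.65. Over all genes 3.69% were higher and 4.54% lower. Beside Trf and Serpina3n the list held Cp, the copper-carrying ferroxidase ceruloplasmin, with 3063 and 2881 in osteoinductive medium against 433 and 318 in growth medium. It was 8.01-fold higher (adjusted p = 6.64e-08 over all 8 arrays). The metallothioneins Mt1 and Mt2, small proteins that bind zinc and copper and are also on the glucocorticoid list, had 6692 and 5337 in osteoinductive medium against 2797 and 2861 in growth medium, and 11951 and 11359 in osteoinductive medium against 3366 and 4360.3 in growth medium, so that Mt1 rose 2.11-fold and Mt2 3.04-fold. Lcn2, the siderophore-binding lipocalin, had 397 and 621 in osteoinductive medium against 153 and 168 in growth medium, and Slc39a14, a zinc and iron importer, had 621 and 626 in osteoinductive medium against 394 and 308 in growth medium. The gene that fell was Slc40a1, the iron exporter ferroportin, with 1282 and 1227 in osteoinductive medium against 2596 and 1689.8 in growth medium; its fall was 1.02 in the centrifuge pair and 0.46 in the microgravity pair on the log2 scale. The count of rises was 7 with each array left out in turn.

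Of 12 tested genes of retinoid handling and flavin monooxygenation 4 rose and 1 fell, beside 3.69% higher and 4.54% lower over all genes, and the median was 0.25. Aldh1a1, which makes retinoic acid from retinal, had 1592 and 1673 in osteoinductive medium against 165 and 235 in growth medium, a 8.29-fold rise. Its neighbour in the family Aldh1a7 had 497 and 574 in osteoinductive medium against 71.6 and 90.7 in growth medium, and Fmo2, a flavin monooxygenase best known from lung, had 1011 and 1584 in osteoinductive medium against 136 and 177 in growth medium. Aldh1a7 was below the level tested in growth medium and was at least 3.65-fold higher. Dhrs3, which reduces retinal to retinol, rose less, by 0.77. Crabp1, a binding protein that holds retinoic acid in the cell, fell, with 684 and 786 in osteoinductive medium against 2793 and 1854 in growth medium. The 7 other tested genes were not called.

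Interferon-stimulated genes fell in osteoinductive medium. Of 16 tested genes 0 were higher and 12 were lower, beside 4.54% lower over all genes, and the list's median was -1.21. In the centrifuge pair the median was -1.39 and in the microgravity pair -0.88. Ifit3, an antiviral protein of the IFIT family, had 181 and 168 in osteoinductive medium against 1880.4 and 1028 in growth medium. It was 7.97-fold lower (SE 0.18 on the log2 scale, adjusted p = 1.21e-07 over all 8 arrays). Ifit1 and Ifit2 of the same family had 379.9 and 289 in osteoinductive medium against 993 and 652 in growth medium, and 196 and 256 in osteoinductive medium against 669 and 428 in growth medium. Within growth medium the centrifuge array was the brighter of the 2 for all 3 genes, and the osteoinductive arrays lay below both.

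Sensors of viral RNA and antiviral effectors were among the falls. Rsad2 (viperin) had 138 and 145 in osteoinductive medium against 449 and 305 in growth medium, and Bst2 (tetherin) had 817 and 715 in osteoinductive medium against 2525 and 1424 in growth medium. Ddx58, the RNA sensor RIG-I, had 529 and 546 in osteoinductive medium against 1399.5 and 915 in growth medium, and Ifih1, the sensor MDA5, was near the threshold, at -0.57. Gbp3, an interferon-induced GTPase, had 327 and 305 in osteoinductive medium against 1102 and 741 in growth medium. The interferon regulator Irf7 differed by -1.16, Usp18, the brake on interferon receptor signalling, by -1.35, and the oligoadenylate synthase genes Oasl2 and Oas1a by -1.30 and -0.88. Genes of the same response outside the list were among the deepest falls, as Irgm1, an immunity GTPase, had 214 and 182 in osteoinductive medium against 653 and 444 in growth medium, Phf11d had 204 and 193 in osteoinductive medium against 875 and 519.9 in growth medium, and Rtp4 had 431 and 372 in osteoinductive medium against 1272 and 887 in growth medium. Of the 4 members that were not called, Stat2 differed by -0.43, Oas2 by -0.33, Ifi35 by -0.24 and Oasl1 by -0.20. Between 10 and 14 members were called lower when an array was left out. Rsad2 was the 1 fallen member below the level tested on both osteoinductive arrays.

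The element that interferon-activated IRF and STAT factors bind was searched as GAAANNGAAA on both strands (TTTCNNTTTC on the other strand) in the same promoter windows. It was in 8 of the 11 fallen list genes with a window, or 72.7%, against 3.49% of the tested genes with a window and 3.44% of all windows. Matches could overlap, as in Bst2. Stretches of 80 bases are shown for 4 of these genes and for Cxcl10, a chemokine gene described next, to set the element beside their falls, with each match in capitals, 5′ to 3′ on the gene's strand, from RefSeq on GRCm38.p6. They lie upstream of the annotated starts, at chr19:34583355-34583434 (plus strand), chr5:92349058-92349137 (minus strand), chr12:26456528-26456607 (minus strand), chr8:71537555-71537634 (minus strand) and chr19:34640759-34640838 (plus strand).
Ifit3: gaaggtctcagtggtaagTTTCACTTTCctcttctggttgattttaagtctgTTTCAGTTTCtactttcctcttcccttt
Cxcl10: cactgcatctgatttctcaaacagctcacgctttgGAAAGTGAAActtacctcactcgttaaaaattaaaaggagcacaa
Rsad2: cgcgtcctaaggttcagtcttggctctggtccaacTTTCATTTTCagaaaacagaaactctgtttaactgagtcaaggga
Bst2: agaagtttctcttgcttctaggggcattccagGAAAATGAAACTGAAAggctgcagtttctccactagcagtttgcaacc
Ifit1: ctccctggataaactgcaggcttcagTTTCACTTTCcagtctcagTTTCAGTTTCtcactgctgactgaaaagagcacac

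Chemokines and cytokines moved in both directions, with 6 of 14 tested genes lower and 2 higher. Over all genes 4.54% were lower and 3.69% higher. Cxcl10, a T cell attractant induced by interferon, had 169 and 138 in osteoinductive medium against 1308 and 764 in growth medium, a 6.53-fold fall (adjusted p = 2.07e-07 over all 8 arrays). The monocyte attractant Ccl2 had 350.2 and 395 in osteoinductive medium against 962 and 528 in growth medium, and the T cell attractant Ccl5 had 173 and 159 in osteoinductive medium against 423 and 333 in growth medium. In both genes the growth centrifuge array was the brightest, and for Ccl2 the fall was 1.46 in the centrifuge pair and 0.42 in the microgravity pair on the log2 scale. Cxcl1, a neutrophil attractant, Lif, a cytokine of the interleukin 6 family, and Csf1, the macrophage growth factor, fell by 0.73, 0.73 and 0.62 on the log2 scale. Il33, an alarmin, rose, with 6866 and 6748 in osteoinductive medium against 3803 and 2457 in growth medium, and Ccl9 rose by 0.73. The count of falls was 3 without the osteoinductive centrifuge array and 3 without the osteoinductive microgravity array.

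Of 11 tested genes of prostaglandin synthesis and reception 2 were higher and 2 were lower, beside 3.69% and 4.54% over all genes. Ptgs2, the inducible cyclooxygenase COX-2, had 1855 and 1752 in osteoinductive medium against 6385 and 4760.2 in growth medium, a 3.06-fold fall (adjusted p = 4.28e-06 over all 8 arrays). Pla2g4a, the phospholipase that frees arachidonic acid, had 792 and 742 in osteoinductive medium against 1610.0 and 1114 in growth medium. Downstream, Ptges, a prostaglandin E synthase, rose by 0.56. The receptor gene Ptgfr was below the level tested on both growth arrays and was at least 1.31-fold higher. The counts were 0 higher and 2 lower without the osteoinductive centrifuge array, and 0 and 1 without the osteoinductive microgravity array.

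The other deep falls were in genes outside the gene lists. Slc14a1, a urea transporter, had 238 and 188 in osteoinductive medium against 1052 and 754 in growth medium, and was 4.21-fold lower. Tnc, the matrix glycoprotein tenascin C, had 906 and 982 in osteoinductive medium against 3562 and 2567 in growth medium, and Hbegf, a growth factor of the EGF family, had 449 and 415 in osteoinductive medium against 1371 and 1075 in growth medium. Growth arrays lay more than 2-fold above osteoinductive arrays in all 3. Agtr2, an angiotensin receptor, had 142 and 146 in osteoinductive medium against 425 and 384 in growth medium, and Gas2, a protein of growth-arrested cells that binds actin, had 315 and 326 in osteoinductive medium against 1174 and 847 in growth medium. Hmox1, the heme-degrading enzyme heme oxygenase 1, had 1236 and 1003 in osteoinductive medium against 3239.8 and 2429 in growth medium, and Glipr1 had 324 and 254 in osteoinductive medium against 1141 and 634 in growth medium. Over the 14 deepest falls the adjusted p over all 8 arrays ranged from 1.21e-07 to 1.27e-05. The 14 were chosen by the smaller of their falls in the pairs.

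The genes of osteoblasts and mineralisation did not move as a group. Of 19 tested genes 1 was higher and 2 were lower, with a median of -0.01, beside 8.23% called over all genes. The gene that rose was Phospho1, a phosphatase of mineralising vesicles, with 377 and 276 in osteoinductive medium against 169 and 131 in growth medium, and it was 2.17-fold higher (adjusted p = 0.000134 over all 8 arrays). Mgp, an inhibitor of calcification, fell, with 1646 and 1453 in osteoinductive medium against 3181 and 1986 in growth medium. Ibsp, bone sialoprotein, fell, with 199 and 255 in osteoinductive medium against 279.9 and 382 in growth medium. Neither fall was called when either osteoinductive array was left out.

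Sp7, the osteoblast transcription factor osterix, had 148 and 129.6 in osteoinductive medium against 163 and 153 in growth medium, and was not called. The alkaline phosphatase gene Alpl had 229.9 and 225 in osteoinductive medium against 221 and 244 in growth medium, and its 4 values lay within a narrow band (difference -0.03, SE 0.18, adjusted p = 0.925 over all 8 arrays). Col1a1, whose levels are given above, differed by 0.17. Dlx5, a homeobox factor of osteoblasts, had 286 and 261 in osteoinductive medium against 249.6 and 565 in growth medium, with the high value on 1 growth array only. The late marker Dmp1 differed by -0.08, the sclerostin gene Sost by -0.01 and the phosphate transporter gene Slc20a1 by -0.48. A difference under about 0.5 was below what these 4 arrays could call. In data of the same size, simulated with the single spread that the fit assumes, 21% of genes changed by 1.41-fold were recovered.

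Of the 19 tested matrix proteases and inhibitors 10 were higher and 1 was lower, beside 3.69% and 4.54% over all genes, with a median of 0.57. Adamts5, an aggrecan-cleaving protease, had 446 and 545 in osteoinductive medium against 197 and 172 in growth medium, and Adamts1 had 1217 and 1329 in osteoinductive medium against 575 and 486 in growth medium. Mmp11 had 2199 and 1951 in osteoinductive medium against 1165 and 717 in growth medium, Mmp19 had 1378 and 1350.3 in osteoinductive medium against 828 and 539 in growth medium, and the gelatinase gene Mmp2 had 5357 and 5226 in osteoinductive medium against 3582 and 2883 in growth medium. In all 5 genes the growth microgravity array was the dimmest. The protease inhibitors Timp2 and Timp3 rose by 0.73 and 0.61, and Mmp16, a membrane protease, fell by 0.55 on the log2 scale. The count of rises was 4 without the osteoinductive centrifuge array and 4 without the osteoinductive microgravity array.

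Among the collagens 5 of 19 rose and 1 fell, beside 3.69% and 4.54% over all genes, with a median of 0.12. The count of rises was 3 without the osteoinductive centrifuge array, 3 without the osteoinductive microgravity array and 3 with an intensity trend. The basement membrane chains Col4a1 and Col4a2 had 1026 and 1126 in osteoinductive medium against 471 and 515 in growth medium, and 930.0 and 1029.7 in osteoinductive medium against 469 and 485 in growth medium, so that they rose by 1.13 and 1.04. Col6a3, a chain of beaded filaments, rose by 0.98, and the fibrillar Col3a1 by 0.63. Col8a1, a short-chain collagen, fell, with 469 and 406 in osteoinductive medium against 1275 and 857 in growth medium. Of the actin and myofibroblast list 3 of 21 rose and 1 fell, beside the same shares over all genes. Ccn2, the connective tissue growth factor, had 5078 and 4310.4 in osteoinductive medium against 863 and 1188 in growth medium, a 4.62-fold rise (adjusted p = 9.44e-07 over all 8 arrays), and Tgfbi and Postn, matrix proteins known to be induced by TGF-beta, had 941 and 1167 in osteoinductive medium against 387 and 393 in growth medium, and 1476 and 1622 in osteoinductive medium against 648 and 778 in growth medium. Tpm1, a tropomyosin of actin filaments, fell by 0.53 on the log2 scale, next to the threshold. The actin list had 0 falls without the flight condition in the fit, with an intensity trend and without the filter on dim genes.

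Of the fat cell and lipid storage genes 6 of 21 were higher and 0 were lower, with a median of 0.22. Over all genes 3.69% were higher and 4.54% lower. Plin2, the coat protein of lipid droplets, had 3704 and 3334 in osteoinductive medium against 1683 and 1195 in growth medium, Scd1, the desaturase of fatty acids, had 1649 and 1504 in osteoinductive medium against 962 and 642 in growth medium, and Apod, a lipid-carrying lipocalin, had 4797 and 4101 in osteoinductive medium against 2435 and 1762 in growth medium. Fabp4, the fatty acid carrier of fat cells, had 388 and 308 in osteoinductive medium against 205 and 247 in growth medium, with a larger difference in the centrifuge pair. Klf15 and Cebpd are also on the glucocorticoid list. The defining fat cell genes were dim, as Adipoq had intensities from 40.5 to 45.0 over the 4 arrays and Pparg, the master factor, from 127 to 143, both below the level tested. Cd36, a fatty acid transporter gene, had 67.4 and 411 in osteoinductive medium against 138 and 171 in growth medium, so that its pairs differed in sign.

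The counts of the remaining signal lists stand beside 3.69% higher and 4.54% lower over all genes. In the insulin-like growth factor list 5 of 10 rose, which were Igf1r, Igfbp4, Igfbp5, Igfbp6 and Igfbp7, by 0.55 to 0.71, and the count was 0 without either osteoinductive array. Igfbp4, a binding protein that holds IGFs away from their receptor, had 1878 and 1883 in osteoinductive medium against 1312 and 1002 in growth medium. Igf1 differed by 0.04 and Igf2 by -0.12. Of 19 Wnt and BMP ligands and antagonists 1 rose and 2 fell, as Wnt5a, a ligand of the non-canonical pathway, had 933 and 965 in osteoinductive medium against 615 and 497 in growth medium, the Wnt antagonist Dkk2 had 235 and 209 in osteoinductive medium against 548 and 423 in growth medium, and the bone-inducing ligand Bmp2 had 847 and 726 in osteoinductive medium against 1480.0 and 1017 in growth medium. Without the osteoinductive centrifuge array, and likewise without the osteoinductive microgravity array, 0 of that list were higher and 1 was lower. The chondrocyte list had 1 of 18 higher, Sox9, the cartilage transcription factor, at 0.57, and it had 0 without either osteoinductive array, without the flight condition in the fit and with an intensity trend. Of 9 genes that stromal cells use to control osteoclasts, Efnb2 rose and Vcam1 and Csf1 fell, with 377 and 517 in osteoinductive medium against 979.8 and 726 in growth medium for Vcam1. Those counts were 0 and 0 without the osteoinductive centrifuge array and 0 and 1 without the osteoinductive microgravity array. Of 9 complement genes 2 rose, C4b and Serping1. C4b was below the level tested on both growth arrays and was at least 1.42-fold higher. Serping1 differed by 0.53, with 205 and 636 in osteoinductive medium against 232 and 271 in growth medium. Its rise lay in the microgravity pair alone. The complement count was 1 without the osteoinductive centrifuge array, 0 without the osteoinductive microgravity array and 1 without the growth microgravity array.

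Of 21 tested cell cycle genes 7 were lower and 0 were higher, beside 4.54% lower and 3.69% higher over all genes. The median of the list was -0.40 in both pairs together, -0.42 in the centrifuge pair and -0.35 in the microgravity pair. Top2a, the topoisomerase of dividing cells, had 199.6 and 281 in osteoinductive medium against 457 and 449 in growth medium, Cdk1, the kinase that drives mitosis, had 169 and 206 in osteoinductive medium against 386 and 283 in growth medium, and Ccnb2, its partner cyclin, had 195 and 205 in osteoinductive medium against 299.8 and 436 in growth medium. The replication helicase genes Mcm6 and Mcm3 fell by 0.69 and 0.61 on the log2 scale. Cdc6, among the falls, was below the level tested on both osteoinductive arrays and was at least 1.34-fold lower. Summed over the list, the intensity was 7003 and 7020 in osteoinductive medium against 9667 and 8590 in growth medium, and the count of 7 was 0 without the osteoinductive centrifuge array and 3 without the osteoinductive microgravity array. In the unfolded protein response 1 of 22 genes was higher and 3 were lower, beside 3.69% and 4.54% over all genes. Atf3, a stress transcription factor, had 634 and 591 in osteoinductive medium against 1439 and 927 in growth medium, and Sel1l, a part of the complex that removes misfolded proteins, had 3069 and 2858 in osteoinductive medium against 1786 and 1367 in growth medium. The median of that list was -0.36 in the centrifuge pair and -0.02 in the microgravity pair, and its falls were 8 without the growth microgravity array and 1 without each of the other arrays in turn.

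**Figure D4:**
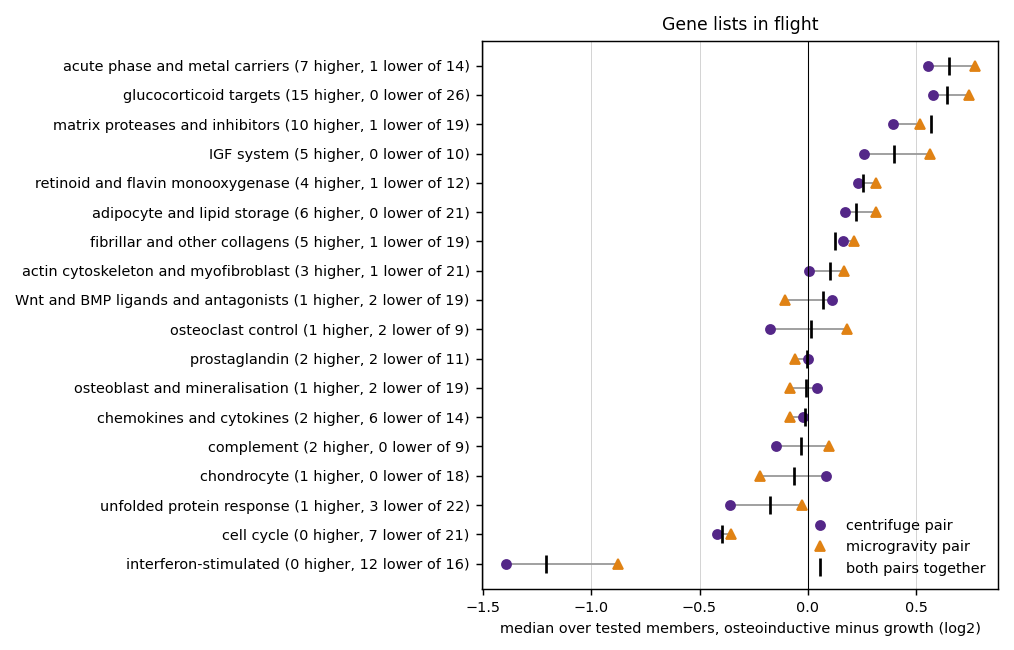
Median difference between osteoinductive and growth medium (log2) over the tested members of 18 gene lists, with circles for the centrifuge pair, triangles for the microgravity pair and black bars for both pairs together; the counts of called members stand beside each name. The acute phase list and the glucocorticoid targets lie furthest right, both at 0.65, and the interferon-stimulated genes furthest left, at -1.21.

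Marker genes of other cell types were measured beside these lists, since the RNA comes from whole cultures, in which fewer cells of a type and less RNA per cell cannot be told apart. Neuronal markers had median log2 intensities of 9.17 and 9.40 in osteoinductive medium against 9.63 and 9.79 in growth medium. The median of their differences was -0.48. Beside 4.54% lower and 3.69% higher over all genes, 6 of 15 tested neuronal markers fell and 0 rose. Their summed intensity was 12333 and 13515 in osteoinductive medium against 16912 and 18490 in growth medium, beside 3325 to 4389 on the arrays that did not fly. Gap43, a protein of growing axons, had 2693 and 2735 in osteoinductive medium against 4229 and 4108 in growth medium, and Stmn2, of growing neurons, had 2139 and 2248 in osteoinductive medium against 2683 and 2776 in growth medium. The falls called were 0 without the osteoinductive centrifuge array, 2 without the osteoinductive microgravity array, 9 without the growth centrifuge array and 3 without the growth microgravity array. Of 14 tested skeletal muscle markers 1 fell, Acta1, with 1347 and 1148 in osteoinductive medium against 1894 and 1876 in growth medium, and 0 were called without either osteoinductive array or with an intensity trend. Summed over 15 muscle markers the intensity was 7752 and 8994 in osteoinductive medium against 9623 and 10268 in growth medium, beside 3119 to 3383 on the arrays that did not fly. Whether these markers had a part in the differences between the media was not tested.

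Lung epithelium markers separated the 2 pairs. Of 11 tested markers 8 were called higher, beside 3.69% of all genes. The markers' median, however, was 0.06 in the centrifuge pair and 1.68 in the microgravity pair. Sftpc, surfactant protein C of alveolar cells, had 724 and 7190.1 in osteoinductive medium against 1233 and 1515 in growth medium. Sftpa1, a surfactant protein that binds microbes, had 287 and 2056 in osteoinductive medium against 310.4 and 401 in growth medium, Slc34a2, a phosphate transporter of alveolar cells, had 163 and 1777 in osteoinductive medium against 156 and 245 in growth medium, and Scgb1a1, the secretoglobin of airway club cells, had 67.8 and 783 in osteoinductive medium against 62.6 and 115 in growth medium, below the level tested. In each the osteoinductive microgravity array was the highest, and the osteoinductive centrifuge array lay near or below the growth arrays. Sftpc was also raised on the other flight arrays, with log2 intensities of 9.50 on the osteoinductive centrifuge array and 10.27 and 10.57 on the growth arrays, beside 6.61 to 6.78 on the arrays that did not fly. Summed over 14 lung markers the intensity on those was 2282 and 2191 in osteoinductive medium against 2168 and 2044 in growth medium, and it was higher on all 4 flight arrays. Without the osteoinductive microgravity array 0 markers were called higher and 1 lower, and without the osteoinductive centrifuge array 8 higher. The count was 1 higher without the growth centrifuge array, 1 without the growth microgravity array and 1 without the flight condition in the fit. Cyp2f2, an airway enzyme on the same list, was higher in both pairs, by 0.76 and 1.68.

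The same array stood out in 13 of the 15 genes that were called although their pairs differed in sign, and these were picked out after their values had been seen. They include Lyz1 and Lyz2, the lysozymes of gut Paneth cells and macrophages, Cxcl15, a lung chemokine, and Krt19, an epithelial keratin. Lyz2 had 207 and 841 in osteoinductive medium against 222 and 209.9 in growth medium. It was the 1 macrophage marker of 7 tested that was called, while Csf1r and Cd68, which define macrophages, differed by -0.34 and -0.35 and Adgre1 had intensities from 83.2 to 90.7. Of 13 endothelial markers 1 was called, Pecam1, with 199 and 463 in osteoinductive medium against 168 and 215 in growth medium. Cdh5, the endothelial cadherin, had 236 and 477 in osteoinductive medium against 279.6 and 273 in growth medium. Over all genes 8.23% were called. Summed over 14 endothelial markers the intensity was 2905 and 4657 in osteoinductive medium against 2883 and 3187 in growth medium. Without this array Trf differed by 4.01, Fkbp5 by 2.61 and Ifit3 by -2.94, and these genes had been chosen for a large difference in both pairs.

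**Figure D5:**
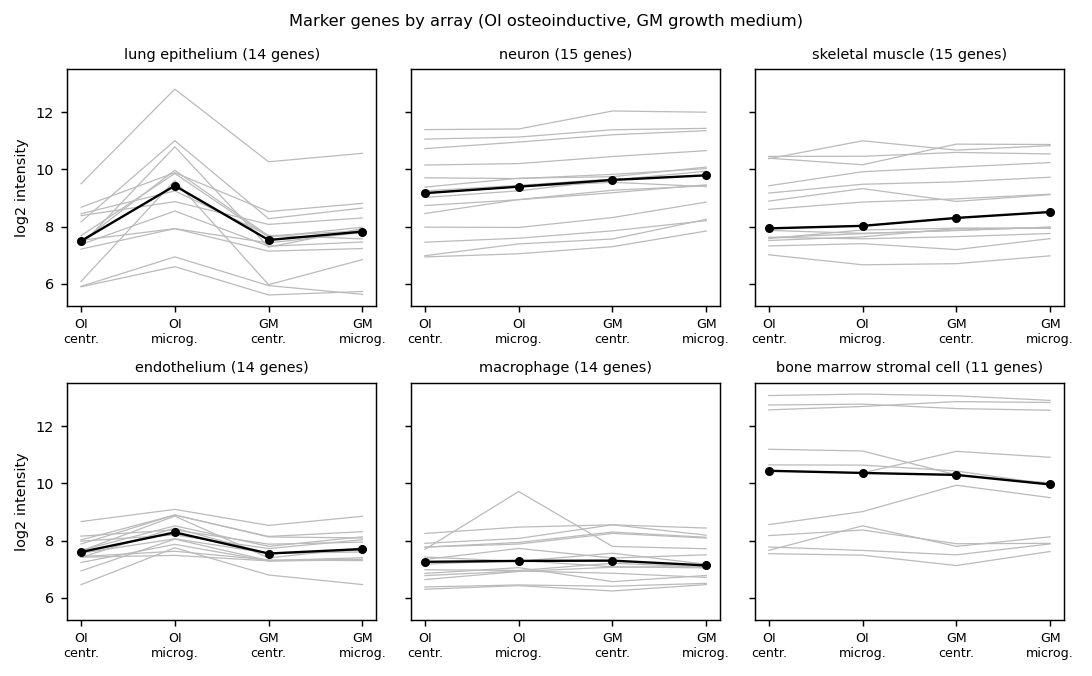
Log2 intensity of marker genes on the 4 flight arrays, osteoinductive (OI) arrays left and growth medium (GM) arrays right, with a grey line per gene and a black line for the median over the genes. The lung epithelium median is 9.43 on the osteoinductive microgravity array, against 7.50 on the osteoinductive centrifuge array and 7.53 and 7.82 on the growth arrays, and the neuron medians are lower on the osteoinductive arrays.

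In the cultures that did not fly the difference between the media had the same sign for 1026 of the 1094 genes called in flight. The share with the same sign over all genes tested was not counted, so this count is not read as a trait of the called genes. The average difference in flight and the average difference without flight had a correlation of 0.78 across the genes tested, which are not independent replicates, and these comparisons share no array. Of single differences, Trf was higher by 4.10 and 3.98 in the flight pairs and by 3.98 and 4.61 in the ground and laboratory pairs, and Fkbp5 by 2.61 and 2.46 beside 1.91 and 2.56. Mt2 was higher by 1.83 and 1.38 in the flight pairs beside 1.72 and 1.27. The differences spread more widely in flight, with a standard deviation over genes of 0.39 and 0.36 in the flight pairs and of 0.23 and 0.28 in the ground and laboratory pairs.

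Whether the difference between media itself differed between flight and no flight was tested as an interaction over all 8 arrays. No gene passed, 0 of 13205, or 0%, and 635 had an unadjusted p under 0.05 where 660 would by chance. With the filter on dim genes set at the 60th percentile 7 genes passed, 1 higher and 6 lower. Without either array of the centrifuge pair 244 genes passed and without either array of the microgravity pair 488, in fits that leave 1 flight pair, and 9 or 8 passed without an array of the ground or of the laboratory pair. The deepest values were those of Ifit3, at -1.59, Cxcl10, at -1.48, Crabp1, at -1.44, Fgf13, an intracellular fibroblast growth factor homologue, at -1.28, and Ndn, the imprinted gene of necdin, at -1.20. The smallest adjusted p, 0.0757, was shared by Ifit3, Cxcl10, Fgf13, Slc14a1 and Mir297b. Ifit3 fell by 3.37 and 2.62 on the log2 scale in the flight pairs and by 1.17 and 1.64 in the ground and laboratory pairs. Crabp1 differed by -2.03 and -1.24 in the flight pairs and by 0.10 and -0.50 in the others. The highest values were in Slc34a2, Lyz1 and Sftpa1, at 1.44, 1.29 and 1.28, which were high on the osteoinductive microgravity array, followed by Prl2c5, of the prolactin family, at 1.20 and the microRNA gene Mir297b at 1.19. Interferon-stimulated genes had a median of -0.50 in the ground pair and -0.56 in the laboratory pair, and cell cycle genes had 0.03 and -0.16.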

How the data were processed

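Total RNA of each culture was amplified, biotin-labelled and hybridised to 1 single-colour array. The deposited values are linear intensities, and RMA and GCRMA are both named in the submitters' processing notes, which do not say which of them gave these values or name a build. Log2 was taken and the arrays, with median intensities of 180.9 to 196.4, were not scaled further. Their number limits the precision. The annotation gave 1 gene to 21789 of 35557 probe sets, several to 1621 and no name to 12147. The brightest probe set stood for a gene, and genes whose mean over the 4 flight arrays was above the 40th percentile of probe sets, a log2 intensity of 7.19, were tested.

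The effect of medium was estimated by limma 3.58.1 under R 4.3.3 (lmFit, eBayes, two-sided, Benjamini-Hochberg), with the flight condition, taken from the titles, as a block. The centrifuge minus microgravity differences of the 2 media had a correlation of 0.10 across genes. The interaction was fitted over 8 arrays and 13205 genes, with 2 residual degrees of freedom and 11.6 prior ones, while the flight fit had 1 and an infinite prior. Arrays of 13295 genes were simulated with the single spread that the fit assumes. The flight fit recovered 21% of 100 genes changed 1.41-fold and 98% of 100 changed 2-fold there, with false calls at 5.56%. That share follows from the assumed spread and does not measure false calls on the real arrays. The text names the 14 genes that rose most and the 14 that fell most by the smaller difference of the 2 pairs, among genes called with one sign, and for the interaction the outermost 5 each way. Members of gene lists were named as examples. The comparison, lists and rules were chosen with earlier results of these data known. Listed genes with no probe set in the tables used were not analysed here. Alternatives were no block, all 8 arrays, quantile normalization, other filters, 32 added before log2, an intensity trend, averaged probe sets and leaving out each array.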

Additional observations from a re-analysis of the deposited data

Results flagged for a closer look

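In 3 listed genes both flight pairs moved one way and both pairs that did not fly the other way. Ccnb2, a mitotic cyclin, had an average flight difference of -0.86, with -0.62 and -1.09 in the centrifuge and microgravity pairs and 0.29 and 0.16 in the ground and laboratory pairs. Snap25, a neuronal membrane fusion protein, had -0.61, with -0.33 and -0.89 in the flight pairs and 0.26 and 0.06 in the others. Ager, a receptor of alveolar cells, had 0.61, with 0.15 and 1.08 in the flight pairs and -0.16 and -0.09 in the others. In the interaction fit with limma their adjusted p were 0.107, 0.45 and 0.688, so the difference did not pass for any of them. The osteoinductive microgravity array, which was high in other lung genes, was also the highest of the 4 for Ager.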

How the results depend on the processing

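The 28 named genes kept their direction under the 12 alternatives, except that 2 were not tested with the filter at the 60th percentile. They had been chosen for a large difference in both pairs, so this is no separate support for them. The total of 1094 genes called ranged from 335 to 2061 with an array left out, the rises from 216 to 790 and the falls from 99 to 1597; the extremes came without the osteoinductive centrifuge array (335 in all and 99 falls), the osteoinductive microgravity array (216 rises), the growth centrifuge array (790 rises) and the growth microgravity array (2061 in all and 1597 falls), and the cause was not tested. Without the flight condition as a replicate block 735 genes were called, all among the 1094, with 373 falls. The other settings gave 855 to 1569 calls, and 714 genes were called in the main fit, without the block and over all 8 arrays. For the interaction the count of 0 ranged from 8 to 488 with an array left out and was 7 with the filter at the 60th percentile; it was 0 without the replicate block. With an array left out, differences reached both signs in Cd36 (-1.19 to 1.42), Serping1 (-0.29 to 1.34), Sftpc (-0.92 to 2.40), Sftpb (-0.13 to 2.05), Sftpa1 (-0.30 to 2.54), Sftpd (-0.013 to 1.16), Slc34a2 (-0.26 to 3.19), Cldn18 (-0.30 to 2.21) and Lyz2 (-0.061 to 1.96), with the low end without the osteoinductive microgravity array, and in Fst, a BMP and activin antagonist (-1.03 to 0.56), with the high end without the growth microgravity array. Fits of the flight arrays with an array left out have no term for flight condition, so they differ from the main fit in this too. The lone array is assumed there to vary like the other medium's. Interaction fits with an array left out keep a term for each condition, so the array whose partner was dropped has no part in the difference. Changes under about 1.4-fold, and genes below the level tested, were beyond what these 4 arrays could call.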
